A study of Mus musculus with 10 samples.

Results

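Macrophages in the tibialis anterior (TA), a muscle at the front of the shin rich in fast fibers, were followed here through 10 marker genes. The markers were chosen by name, with earlier results of these data known. Mrc1, Folr2, Cd163 and Lyve1 mark tissue-resident macrophages. Ly6c2, Cd14 and Lyz2 are high in monocytes and in cells that have recently come from them. Csf1r, Adgre1 and Cd68 are expressed by both kinds of macrophage. All 10 were among the 39179 genes listed in the count files. RNA was measured in 10 mice, of which 4 were injected with PBS in both flanks (Control, labelled 0 days of tumor development) and 6 received Lewis Lung Carcinoma (LLC) cells, a mouse lung cancer cell line, suspended in PBS and placed under the skin of both flanks (labelled 23 days). No engineered allele is given for either group. The sources differ on the mice, since the sample labels give strain C57BL/6J, an age of 10 weeks at injection and day 23, whereas the design text gives C57BL/10 males, 8 weeks old, studied at day 22. Per the study's methods the samples were picked at random, and the 6 LLC mice were those that survived to the end of the experiment. The deaths given in its results leave more survivors than these 6, so not every survivor need have been sequenced. Mice that died earlier are not represented.

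Skeletal muscle holds macrophages that live there in the healthy state, mainly in the connective tissue around fibers and vessels, and these carry scavenger and endocytic receptors such as the mannose receptor and the folate receptor beta. Monocytes made in the bone marrow enter muscle when it is injured or inflamed, bring high Ly6C, CD14 and lysozyme with them, and can change into macrophages there. Macrophages of both kinds carry the receptor for colony stimulating factor 1, which supports their survival, and in a whole-muscle sample their RNA is a small part of the total.

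Total counts ranged from 16693209 to 21303084 per sample with smaller totals in the tumor group (two-sided exact permutation test, p = 0.0381), a difference that passed 0.05 in only 4 of the 10 tests that left out a sample and was lost without Control 1, Control 2, LLC 1, LLC 2, LLC 3 or LLC 6. Mitochondrial transcripts took 28.4% to 30.7% of counts in Control and 22.0% to 27.9% in LLC, with no overlap (p = 0.00952 by the same exact test, which is the lowest p that 4 against 6 can give). LLC 1 and LLC 5 had the lowest mitochondrial shares, 22.0% and 22.9%. Muscle identity was checked with 6 skeletal muscle genes, whose summed level was 101789 to 108185 CPM (counts scaled to equal library sizes) in Control and 67839 to 114020 CPM in LLC, where the lowest value was that of LLC 1 and the others were at or above 98129 CPM. A level of 3 counts, the smallest taken as detected, corresponded to 0.148 to 0.174 CPM, so that several of the markers were read near the limit of detection.

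Of the 10 markers, 2 resident markers were down-regulated in LLC, 1 monocyte marker was up-regulated, 4 did not pass the test and 3 had too few counts to be tested. Mrc1, the mannose receptor, fell 2.07-fold and Lyve1, a hyaluronan receptor, fell 5.77-fold, while Ly6c2, which encodes part of the Ly6C antigen of inflammatory monocytes, rose 9.73-fold from a level at the limit of detection. The test was edgeR's quasi-likelihood test over 12690 genes with Benjamini-Hochberg adjustment, and a gene was called with an adjusted p of 0.05 or less and at least 1.5-fold. Among all genes tested, 5.63% were called, 3.99% lower and 1.65% higher, against 3 of the 7 markers tested, 2 lower and 1 higher. Ly6c2 passed the filter on low counts only because of its level in LLC. The groups did not overlap for 4 of the 10 markers (Mrc1, Folr2, Lyve1 and Ly6c2), of which Folr2 was not tested. Among the 7 markers tested these were Mrc1, Lyve1 and Ly6c2, against 16.0% of all genes tested. In muscle RNA, fewer cells of a type and less RNA per cell cannot be told apart, and this holds for each marker below.

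**Figure D1:**
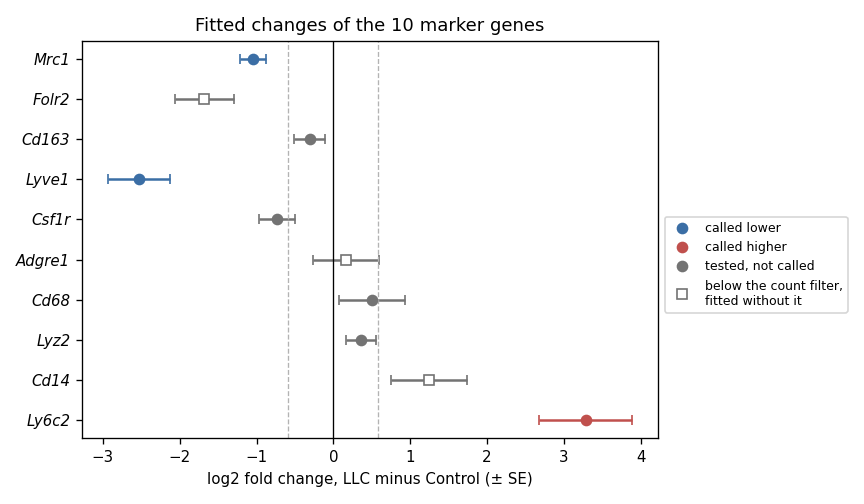
Log2 fold change of each marker, LLC minus Control, with its standard error (n = 4 Control and 6 LLC). Filled circles were tested and open squares were below the count filter and fitted without it, the dashed lines mark 1.5-fold, and Mrc1 (-1.05), Lyve1 (-2.53) and Ly6c2 (3.28) are the 3 markers called.

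Mrc1, Folr2 and Cd163 were the core of the resident set. Mrc1 (ENSMUSG00000026712) lies at chr2:14229392-14332057 on the plus strand, Folr2 (ENSMUSG00000032725) at chr7:101839988-101857194 on the minus strand and Cd163 (ENSMUSG00000008845) at chr6:124304656-124330527 on the plus strand, all on GRCm38 (mm10) and all protein coding. Exons of Folr2 overlap Gm10602 on the other strand, so part of its count could belong to that gene if reads were counted without strand. The bases just upstream of the start of these genes are shown because Mrc1 and Folr2 were both lower in LLC without overlap whereas Cd163 was not. They are taken from RefSeq (GRCm38.p6), 5′ to 3′ on the strand of the gene, at chr2:14229164-14229391, chr7:101857195-101857440 and chr6:124304401-124304650. Capitals mark GGAAGT or its reverse complement ACTTCC. These letters are part of a site bound by PU.1, the lineage factor of macrophages, and do not by themselves mark such a site.
Mrc1: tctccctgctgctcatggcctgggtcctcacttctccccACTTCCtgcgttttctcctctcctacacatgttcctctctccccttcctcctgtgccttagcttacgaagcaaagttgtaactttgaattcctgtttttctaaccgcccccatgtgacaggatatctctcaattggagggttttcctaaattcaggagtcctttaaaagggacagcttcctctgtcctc
Folr2: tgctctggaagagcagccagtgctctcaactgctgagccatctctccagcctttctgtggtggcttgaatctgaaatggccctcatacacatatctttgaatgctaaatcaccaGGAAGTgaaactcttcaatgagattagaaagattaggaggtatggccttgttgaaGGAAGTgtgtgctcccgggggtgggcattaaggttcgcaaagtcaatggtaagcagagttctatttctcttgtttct
Cd163: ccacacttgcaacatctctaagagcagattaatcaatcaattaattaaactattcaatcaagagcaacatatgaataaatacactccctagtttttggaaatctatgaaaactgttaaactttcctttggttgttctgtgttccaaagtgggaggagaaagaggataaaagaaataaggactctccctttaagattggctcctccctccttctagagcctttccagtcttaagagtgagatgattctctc
The letters occurred once upstream of Mrc1, 211 bases before the RefSeq start, and in 2 places upstream of Folr2, 136 and 81 bases before it. They did not occur in the 250 bases upstream of Cd163. Of the 32851 promoters in the same table, 19.7% hold these letters on either strand in the 250 bases before the start, so their presence describes these windows and does not set the genes apart.

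Mrc1 had 49, 70, 61 and 53 counts in Control 1 to 4, which is 2.60, 3.46, 3.30 and 2.90 CPM. In LLC its level ran from 1.06 CPM through a median of 1.43 to a highest value of 1.86 CPM, with 19 to 35 counts. Every LLC sample was below every Control sample. The fitted change was -1.05 ± 0.17 (log2, SE; edgeR, adjusted p = 0.00335), with means of 3.06 ± 0.39 CPM for Control and 1.48 ± 0.29 CPM for LLC (SD over 4 and 6 mice). Mrc1 was the steadiest of the resident markers in LLC, with a coefficient of variation of 19.7%. Leaving out each sample in turn kept the call in 10 of 10 fits, with changes between -1.12 and -0.97. The RNA of the mannose receptor thus fell by more than the spread between mice, in all 6 LLC samples.

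**Figure D2:**
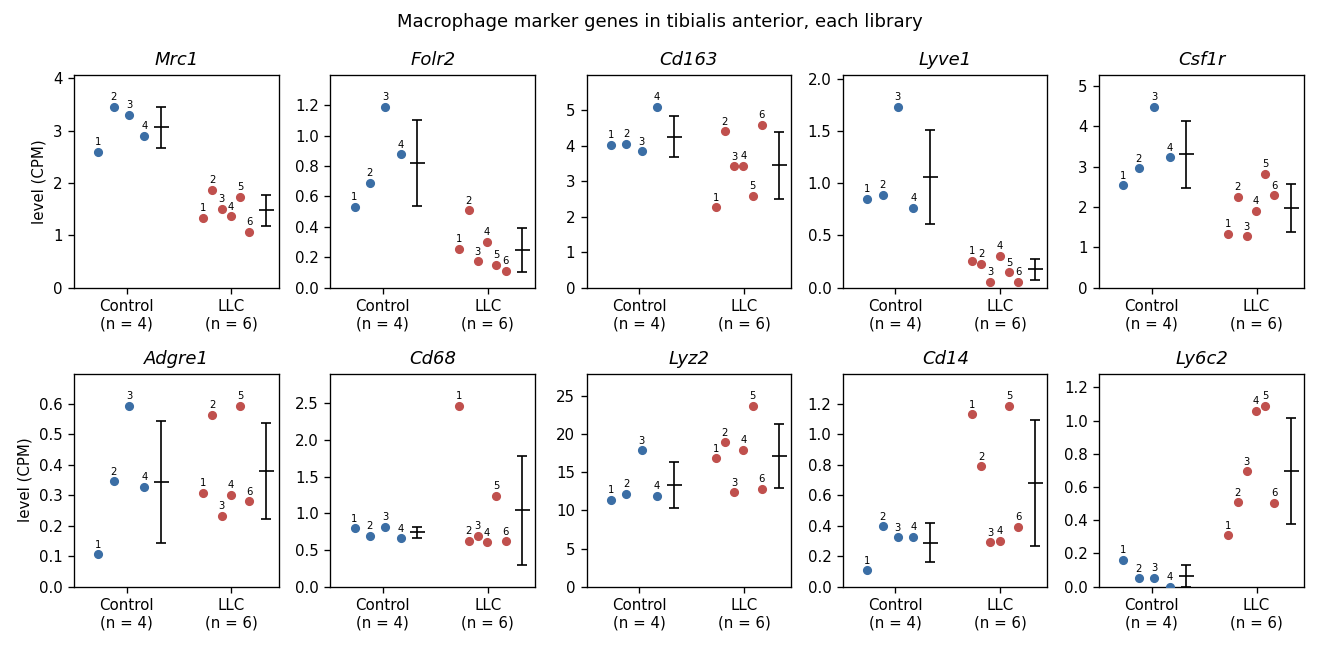
Level of each marker in every library (CPM, linear axes from 0), with the replicate number above each point and the mean ± SD beside each group (n = 4 Control, n = 6 LLC). Mrc1, Folr2 and Lyve1 are lower and Ly6c2 is higher in all 6 LLC samples, and the high Cd68 value belongs to LLC 1.

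Folr2, the folate receptor beta of resident macrophages, had 10, 14, 22 and 16 counts in Control, or 0.53, 0.69, 1.19 and 0.88 CPM. In LLC it ran from 0.11 CPM, with a median of 0.22, up to 0.51 CPM, that is 2 to 9 counts. All 6 LLC samples were below the lowest Control, although LLC 2 at 0.51 CPM lay close to Control 1 at 0.53 CPM. Folr2 was below the filter on low counts and therefore not tested together with the other markers. Without that filter its change was -1.68 ± 0.38 (log2, SE; edgeR, adjusted p = 0.022), in a fit that called 3.64% of 21983 genes, and the call was kept in 5 of the 10 fits that left out a sample. It was lost without Control 2, Control 3, Control 4, LLC 5 or LLC 6, where the adjusted p ran up to 0.0989. The summed counts, 62 in Control and 28 in LLC, gave a ratio of 0.305 per library size (exact Clopper-Pearson 95% interval 0.188 to 0.484, counting error only).

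Cd163, the scavenger receptor that clears hemoglobin bound to haptoglobin, did not pass the test. Its level was 4.03, 4.05, 3.84 and 5.09 CPM in Control. In LLC the lowest, median and highest values were 2.26, 3.42 and 4.58 CPM. The groups overlapped, since LLC 2 and LLC 6, at 4.40 and 4.58 CPM, lay within the Control range and the other 4 lay below it. The change was -0.31 ± 0.20 (log2, SE; edgeR, adjusted p = 0.325). Cd163 had 44 to 93 counts a sample, more than Mrc1 in each of the 10, so it was not read at lower depth. The lowest 2 LLC values of Cd163 were those of LLC 1 and LLC 5. Relative to Cd163 in the same library, Mrc1 gave 57.0 to 85.9 counts per 100 counts of Cd163 in Control and 23.2 to 67.3 in LLC, with overlap between the groups. This ratio was chosen after the values were seen and was not tested.

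Lyve1 marks the resident macrophages that lie along vessels and also the endothelium of lymphatic vessels. It lies at chr7:110850607-110863239 on the minus strand (ENSMUSG00000030787, protein coding). Control samples held 16, 18, 32 and 14 counts, or 0.85, 0.89, 1.73 and 0.77 CPM. The LLC samples held 1 to 6 counts, with 0.056 CPM as the lowest value, 0.19 as the median and 0.30 CPM as the highest. No LLC sample reached the lowest Control value. The change was -2.53 ± 0.40 (log2, SE; edgeR, adjusted p = 0.00303), kept in 10 of 10 fits without 1 sample (-2.75 to -2.19). The summed counts of 80 and 20 gave a ratio of 0.169 (exact Clopper-Pearson 95% interval 0.098 to 0.278, counting error only).

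Markers of lymphatic endothelium other than Lyve1 were lower in sum in LLC. The summed level of the 6 was 11.1 to 12.3 CPM in Control and 6.00 to 9.67 CPM in LLC, none was at 0 in every sample of a group, and 2 of the 5 tested were called lower with none higher. Of all genes tested, 3.99% were called lower and 1.65% higher. Ccl21a, the chemokine that lymphatic vessels use to draw in leukocytes, changed by -2.08 ± 0.23 and Reln by -1.30 ± 0.27 (log2, SE; edgeR, adjusted p = 0.000393 and 0.0157), the latter call being lost without Control 2, Control 3 or Control 4. Prox1, the transcription factor that defines lymphatic endothelium, changed by -0.44 and did not pass (edgeR, adjusted p = 0.257). The part of lymphatic endothelium in the fall of Lyve1, or in that of Mrc1, was not tested.

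Ly6c2 was the monocyte marker with the clearest change. It lies at chr15:75108158-75111970 on the minus strand of GRCm38 (ENSMUSG00000022584, protein coding), and Lyz2 (ENSMUSG00000069516, protein coding) lies at chr10:117277331-117282321 on the minus strand. The bases upstream of both starts are shown as the monocyte-side counterpart of those of Mrc1, Folr2 and Cd163, from RefSeq (GRCm38.p6) at chr15:75111972-75112221 and chr10:117282322-117282522, 5′ to 3′ on the strand of the gene, with the same letters in capitals.
Ly6c2: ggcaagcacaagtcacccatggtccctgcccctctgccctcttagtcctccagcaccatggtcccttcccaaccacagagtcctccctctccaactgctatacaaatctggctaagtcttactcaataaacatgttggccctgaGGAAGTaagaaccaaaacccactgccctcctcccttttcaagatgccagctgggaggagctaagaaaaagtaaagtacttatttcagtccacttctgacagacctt
Lyz2: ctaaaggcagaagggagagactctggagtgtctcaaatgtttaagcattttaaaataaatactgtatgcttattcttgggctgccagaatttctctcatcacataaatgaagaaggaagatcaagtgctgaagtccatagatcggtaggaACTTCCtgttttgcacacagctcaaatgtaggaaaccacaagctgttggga
The letters lie 106 bases before the RefSeq start of Ly6c2 and 100 bases before that of Lyz2. In Ly6c2 they form part of the longer GAGGAAGT, which contains the shorter motif and occurs in 2.44% of promoters in the same window. Among the 6 markers with a window searched, the letters were in those of the resident genes Mrc1 and Folr2 and of the monocyte genes Ly6c2 and Lyz2, and not in those of Cd163 and Cd68.

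Ly6c2 had 3, 1, 1 and 0 counts in the Control samples, which is 0.16, 0.049, 0.054 and 0 CPM, at or under the level taken as detected. All 6 LLC samples held more, from 0.31 CPM (6 counts in LLC 1) through a median of 0.60 to 1.09 CPM (22 counts in LLC 5). The groups did not overlap. The change was 3.28 ± 0.60 (log2, SE; edgeR, adjusted p = 0.00761). With summed counts of 5 and 79, the ratio was 10.7 (exact Clopper-Pearson 95% interval 4.39 to 33.8, counting error only), so the size of the rise is poorly known while its direction was shared by all 6 LLC samples. Without LLC 3, LLC 4, LLC 5 or LLC 6 the gene fell below the filter on low counts, and with no filter it was called in 10 of 10 fits that left out a sample (2.92 to 4.08).

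Ly6c1, the neighboring paralog expressed by blood endothelium, is far more abundant in muscle, at 42.4 ± 6.4 CPM in Control and 65.4 ± 15.2 CPM in LLC (SD, n = 4 and 6), and rose by 0.63 ± 0.17 (log2, SE; edgeR, adjusted p = 0.0478). This call was lost in 9 of 10 fits that left out a sample. Of the stretches of 100 bases in Ly6c2 transcripts, 159 of 2737 (5.81%) also occur in Ly6c1, so a few reads of the abundant paralog could be counted as Ly6c2. Counts of Ly6c2 were 0 to 0.37 per 100 counts of Ly6c1 in Control and 0.33 to 2.17 in LLC, and LLC 1 alone lay within the Control range. In the other 5 LLC samples Ly6c2 was high relative to its paralog as well. How the reads shared by both genes were assigned was not tested, and the value of LLC 1 is uncertain for that reason.

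Lyz2, the lysozyme of monocytes, macrophages and neutrophils, was the most abundant of the 10 markers and did not pass the test. The Control values were 11.4, 12.1, 17.9 and 11.9 CPM. The LLC values ran from 12.4 to 23.8 CPM with a median of 17.4 CPM. Control 3 lay among the LLC samples, and 3 of the 6 LLC samples exceeded every Control. The change was 0.36 ± 0.20 (log2, SE; edgeR, adjusted p = 0.242). Stretches shared with the paralog Lyz1 made up 1.97% of Lyz2. Within each library, Mrc1 gave 18.4 to 28.5 counts per 100 counts of Lyz2 in Control and 7.29 to 12.1 in LLC, without overlap, a ratio chosen after the values were seen and not tested.

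Cd14 encodes the co-receptor through which monocytes and macrophages sense bacterial lipopolysaccharide. It lies at chr18:36725067-36726798 on the minus strand (ENSMUSG00000051439, protein coding) and was below the filter on low counts. Control samples held 2, 8, 6 and 6 counts, or 0.11, 0.40, 0.32 and 0.33 CPM. LLC samples ran from 0.29 through a median of 0.59 to 1.19 CPM. Only 3 of the 6 LLC samples exceeded every Control, namely LLC 5 (24 counts), LLC 1 (22) and LLC 2 (14), and the other 3, with 5 to 7 counts, were within the Control range. Without the filter the change was 1.24 ± 0.50 (log2, SE; edgeR, adjusted p = 0.181) and it was called in 0 of 10 fits that left out a sample. A rise of Cd14 in all LLC mice was therefore not seen, at counts that limit the reading of each sample. The summed counts, 22 in Control and 78 in LLC, gave a ratio of 2.40 per library size (exact Clopper-Pearson 95% interval 1.48 to 4.04, counting error only).

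Neutrophils also carry lysozyme and CD14, and their transcripts were higher in sum in LLC. The summed level of 20 neutrophil genes was 1.75 to 3.75 CPM in Control and 39.9 to 86.0 CPM in LLC, and some of these genes are also expressed by monocytes. The 13 that could be tested were called higher, but 9 of them had under 10 counts in every Control and passed the filter only through LLC, so that count was largely set by the filter. Among all genes tested, 1.65% were called higher. S100a8, a calcium-binding protein of neutrophils and monocytes, went from 0.17 ± 0.17 to 14.3 ± 5.5 CPM and Retnlg from 0.012 ± 0.025 to 2.65 ± 1.18 CPM (SD, n = 4 and 6; edgeR, adjusted p = 0.000119 and 0.000188). Clec4d was at 0 in every Control library and at 0.59 CPM in LLC, at least 15.0-fold higher against a floor of 3 counts over the group. Ly6g, which defines neutrophils, was at 0 in every Control and at 0.14 CPM in LLC, too low to be tested, and Elane, an enzyme of immature neutrophils, was at 0 in all 10 samples. The part of neutrophils in the levels of Lyz2, Cd14 and Ly6c2 was not tested.

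Csf1r, the receptor for colony stimulating factor 1 and interleukin 34 on which macrophages depend, was lower in LLC at the edge of the threshold. It lies at chr18:61100598-61132149 on the plus strand (ENSMUSG00000024621, protein coding), and its exons overlap Hmgxb3 on the other strand. Control values were 2.54, 2.96, 4.49 and 3.23 CPM. LLC values ran from 1.27 through a median of 2.09 to 2.83 CPM. Of the 6 LLC samples 5 were below every Control, and LLC 5 was above Control 1. The change was -0.73 ± 0.24 (log2, SE) with an adjusted p of 0.0868 in edgeR, so it was not called, whereas DESeq2 called it (adjusted p = 0.046, in a fit that called 8.29% of genes), as did limma voom (adjusted p = 0.0265). The call thus depends on the tool. Within each library the ratio of Mrc1 to Csf1r overlapped between the groups, at 73.5 to 117 counts of Mrc1 per 100 of Csf1r in Control and 46.3 to 118 in LLC.

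Adgre1 encodes F4/80, the classical surface marker of mouse macrophages, and did not separate the groups. It lies at chr17:57358691-57483527 on the plus strand (ENSMUSG00000004730, protein coding). The Control samples had 2, 7, 11 and 6 counts, or 0.11, 0.35, 0.59 and 0.33 CPM. The LLC samples ran from 0.23 through a median of 0.31 to 0.59 CPM. Both ranges covered nearly the same levels, and the ratio of the summed counts, 26 and 43, was 1.12 (exact Clopper-Pearson 95% interval 0.671 to 1.89, counting error only). Without the count filter the change was 0.16 ± 0.43 (log2, SE; edgeR, adjusted p = 0.857), an error that leaves room for a change of 1.5-fold in either direction.

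Cd68, a glycoprotein of macrophage lysosomes at chr11:69664213-69666153 on the minus strand (ENSMUSG00000018774, protein coding), was level in most samples. Control values were 0.79, 0.69, 0.81 and 0.66 CPM. LLC values ran from 0.60 CPM with a median of 0.66 CPM to 2.47 CPM in LLC 1. LLC 5 followed at 1.24 CPM, and the other 4 lay at 0.60 to 0.70 CPM. The change of 0.50 ± 0.43 (log2, SE; edgeR, adjusted p = 0.449) was 0.05 without LLC 1, so the difference between the group means came from that library. LLC 1 and LLC 5 were also high in Cd14 and low in Cd163, with the lowest mitochondrial shares of all samples, and the part of those shares in these values was not tested.

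The resident and monocyte sets were set against each other in each library. The mean log2 CPM of Mrc1, Folr2 and Cd163 minus that of Ly6c2, Cd14 and Lyz2 was 1.15, 1.21, 1.27 and 1.60 in Control 1 to 4. In LLC it was -1.63 at the lowest, in LLC 5, and -0.32 at the highest, in LLC 2. All Control samples were above 0 and all LLC samples below it. The Control mean was 1.31 ± 0.20 and the LLC mean -0.76 ± 0.47 (SD over 4 and 6 mice), a difference of -2.07. The sign compares sets of genes of unequal length and has no meaning by itself, and the shift between the groups is the measurement. It was not tested, since the markers were chosen with earlier results of these data known and the values are built from results given above.

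Both sets contributed to that shift. The resident mean went from 1.20 ± 0.19 to 0.28 ± 0.28 and the monocyte mean from -0.10 ± 0.18 to 1.04 ± 0.40 (log2 CPM, SD, n = 4 and 6), changes of -0.92 and 1.15. On this scale, with a prior count of 2, Folr2 changed by -1.42, Mrc1 by -1.01 and Cd163 by -0.33. The monocyte set rested on Ly6c2 (2.20) and Cd14 (0.89) more than on Lyz2 (0.35). Leaving out any sample gave differences of -2.16 to -1.89. Adding Lyve1 to the resident set gave -2.36, and leaving Lyz2 out of the monocyte set gave -2.47.

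**Figure D3:**
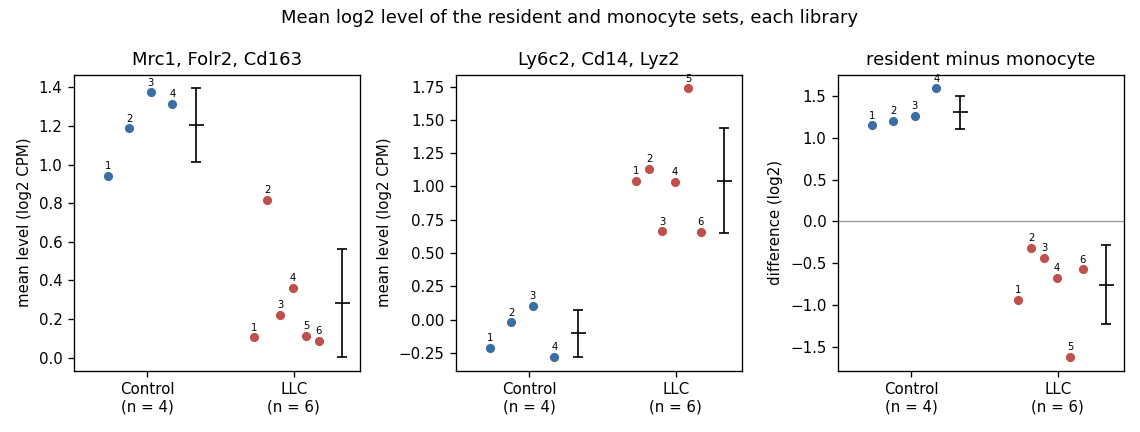
Mean log2 CPM of the resident markers (left), of the monocyte markers (middle) and their difference (right, log2) in every library, with replicate numbers and the mean ± SD of each group (n = 4 Control, n = 6 LLC). The difference is 1.15 to 1.60 in Control and -1.63 to -0.32 in LLC.

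Levels of different genes were compared per length, as CPM divided by the exonic length in kilobases (RPKM). In Control, Lyz2 was highest at 10.1 ± 2.3 RPKM, followed by Cd163 at 0.78 ± 0.10 RPKM (SD, n = 4), and neither overlapped with its neighbors in the order. Cd68, Csf1r, Folr2, Mrc1 and Lyve1 came next, between 0.59 and 0.36 RPKM on average, each overlapping with the next, and Lyve1 did not overlap with Cd14 after it. Cd14, Adgre1 and Ly6c2 were last, at 0.17, 0.11 and 0.024 RPKM. In LLC, Lyz2 was again apart, at 9.42 to 18.1 RPKM over the 6 samples, and every other marker overlapped with the next in the order, so that their ranks are not resolved. Ly6c2, the last of 10 in Control, stood sixth at 0.25 ± 0.12 RPKM in LLC, next to Mrc1 at 0.23 ± 0.05 RPKM, while Lyve1 was last at 0.060 ± 0.036 RPKM.

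**Figure D4:**
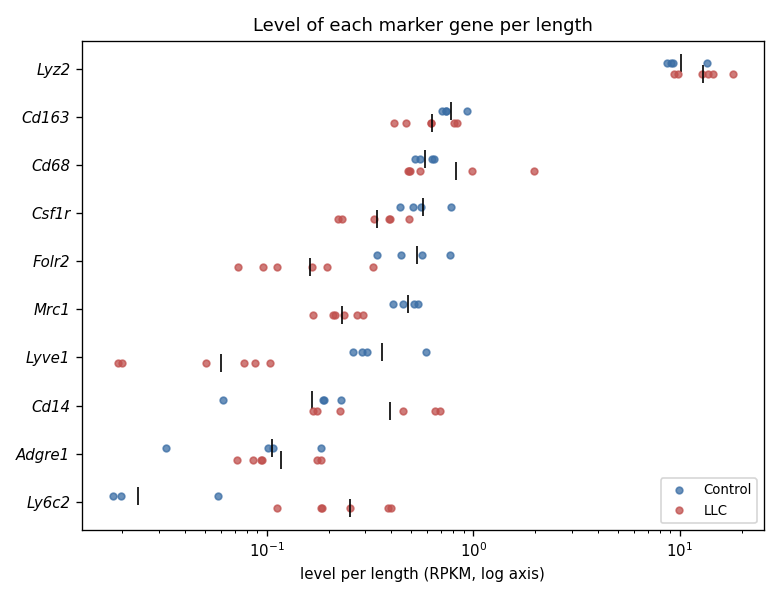
Level of each marker per length (RPKM, log axis) in every Control (blue) and LLC (red) library, with black ticks at the group means and values of 0 not drawn (Ly6c2 in Control 4). Genes are ordered by their Control mean, from Lyz2 (10.1 RPKM) to Ly6c2 (0.024 RPKM).

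Other genes of resident macrophages gave calls in both directions. Of 22 such genes, 14 were tested, of which 2 were called lower and 1 higher, and 11 of the 14 changes were negative, with a median of -0.40 (log2) against 0.002 over all 12690 genes. Mgl2, a galactose-binding lectin, changed by -1.21 ± 0.29 and Pf4, a chemokine, by -1.10 ± 0.27 (log2, SE; edgeR, adjusted p = 0.0289 and 0.0347), and these calls were kept in 5 and 4 of 10 fits that left out a sample. DESeq2 called Cbr2 and C1qc as well. Wfdc17, a small secreted inhibitor made by several myeloid cells, went the other way, from 0.28 ± 0.10 to 1.70 ± 0.86 CPM (SD, n = 4 and 6; edgeR, adjusted p = 0.00398). It had under 10 counts in every Control, so it was tested only through its level in LLC. For comparison, edgeR called 3.99% of all genes tested lower and 1.65% higher. The summed level of the list, 264 to 327 CPM in Control and 170 to 298 CPM in LLC, is dominated by genes that other muscle cells express, such as Maf and Gas6.

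Calls among the other monocyte genes and the markers common to leukocytes were all in the higher direction. Of 21 monocyte genes, 14 were tested, with 7 called higher, 0 lower and a median of 0.87 (log2), and 4 of the 14 had under 10 counts in every Control, so they were tested only through their level in LLC. The summed level of the 21 genes overlapped, at 191 to 282 CPM in Control and 161 to 244 CPM in LLC. Plac8, which neutrophils also express, went from 0.080 ± 0.032 to 0.90 ± 0.32 CPM and Ifitm6, an interferon-induced membrane protein, from 0.094 ± 0.067 to 0.73 ± 0.21 CPM (SD, n = 4 and 6; edgeR, adjusted p = 0.000692 and 0.00357). Ccr2, the receptor that brings monocytes into tissue, changed by 0.63 ± 0.25 and did not pass (log2, SE; edgeR, adjusted p = 0.14). Of 20 genes shared by macrophages and other leukocytes, 17 were tested, with 7 higher, 0 lower and a median of 0.94. Ptprc, which encodes the pan-leukocyte antigen CD45, rose by 2.09 ± 0.29 (log2, SE; edgeR, adjusted p = 0.00119), from 0.62 ± 0.03 to 2.66 ± 0.91 CPM (SD, n = 4 and 6). The lists were not tested as sets, and the shares called can be read against 1.65% of all genes called higher.

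Relative to CD45 transcripts, Mrc1 was low in every LLC sample. There were 445 to 538 counts of Mrc1 per 100 counts of Ptprc in Control and 32.8 to 86.7 in LLC, without overlap, a ratio chosen after the values were seen and not tested. The MHC class II and dendritic cell genes, which macrophages share, had 0 of 7 tested called in either direction by edgeR or DESeq2 and 0 with an unadjusted p under 0.05, with a median of -0.32 (log2), and Cd74, their invariant chain, was at 13.7 ± 2.5 CPM in Control and 10.6 ± 4.6 CPM in LLC (SD, n = 4 and 6). Over all genes tested, edgeR called 5.63% and DESeq2 8.29%. The 10 lymphoid genes summed to at most 0.88 CPM in any sample and none could be tested.

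**Figure D5:**
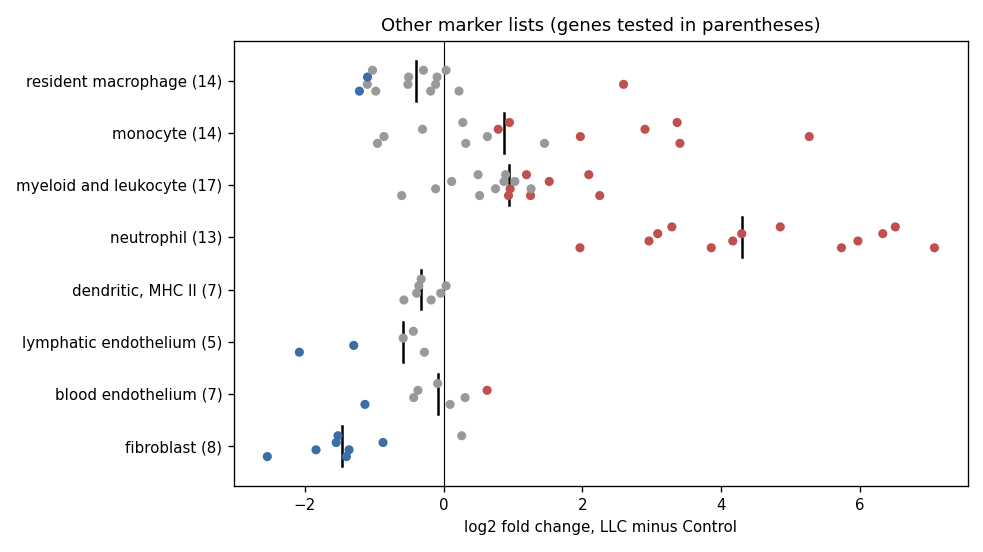
Log2 fold change, LLC minus Control, of each tested gene in 8 other marker lists, colored red where called higher, blue where called lower and grey where not called, with a black bar at the list's median. The resident macrophage list has its median at -0.40, the monocyte list at 0.87 and the neutrophil list at 4.30 (4.17 with Clec4d, at 0 in every Control, set to its bound).

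Fibroblast genes were lower in LLC, whereas those of blood endothelium gave 1 call in each direction. Of 8 fibroblast genes, 7 were called lower and 0 higher, with a summed level of 412 to 496 CPM in Control and 161 to 218 CPM in LLC. Over all genes tested, 3.99% were called lower and 1.65% higher, and the calls of the other lists below can be read against the same shares. Lum, a proteoglycan of connective tissue, changed by -2.54 ± 0.34 and Dpt by -1.84 ± 0.15 (log2, SE; edgeR, adjusted p = 0.00115 and 0.00011). The 7 blood endothelial genes had 1 called lower, Kdr, in 6 of 10 fits that left out a sample, and 1 higher, Ly6c1, in 1 of 10, with a summed level of 302 to 366 CPM in Control and 311 to 341 CPM in LLC. Of 5 red cell genes 3 were called higher, of which Hbb-bt was kept in 10 of 10 such fits, Hbb-bs in 7 and Alas2 in 6, and their summed level was 58.8 to 83.4 CPM in Control and 88.7 to 144 CPM in LLC. Mrc1, Folr2 and Lyve1 were thus low in samples whose connective tissue transcripts were also low and whose red cell and neutrophil transcripts were high in sum, and the part of either in the marker levels was not tested.

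Genes of the colony stimulating factor 1 axis were also measured, with transcription factors of macrophages and other cells among them. Of 9 such genes, Csf1r included, 9 were tested and 1 was called, against 5.63% of all genes. The called gene was Il34, the second ligand of the receptor, which went from 3.99 ± 0.67 to 2.50 ± 0.20 CPM (SD, n = 4 and 6). Its change was -0.67 ± 0.13 (log2, SE; edgeR, adjusted p = 0.0114). The main ligand, Csf1, changed by -0.21 and was not called (log2; edgeR, adjusted p = 0.526). DESeq2 called 4 of the 9, adding Csf1r, Runx1 and Cebpb, in a fit that called 8.29% of all genes. Spi1, which encodes PU.1, was at 0.35 CPM in Control and 0.73 CPM in LLC and was not called (edgeR, adjusted p = 0.077). Among 9 genes of monocyte recruitment, 3 were tested and 1 was higher, the chemokine receptor Ccr1, at 0.040 ± 0.052 CPM in Control and 0.73 ± 0.41 CPM in LLC (SD, n = 4 and 6; edgeR, adjusted p = 0.00725). Ccr1 had under 10 counts in every Control, so it was tested only through its level in LLC. Ccl2, the ligand of Ccr2, was at 0.11 CPM in Control and 0.17 CPM in LLC, too low to be tested.

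The pathways of Cd14 and Cd163 were also examined, with 5.63% of all genes called as background. None of the 6 tested genes of the lipopolysaccharide receptor pathway was called by edgeR, although 4 had an unadjusted p under 0.05. Myd88, its adaptor, changed by 0.64 ± 0.18 (log2, SE; edgeR, adjusted p = 0.0593) and was called by DESeq2 (adjusted p = 0.0198). In edgeR fits that left out a sample it stayed uncalled in 9 of 10, and the lowest adjusted p was 0.0258. Among 11 genes of hemoglobin and iron handling, Cd163 included, 9 were tested and 2 were lower. These were Lrp1, the receptor for heme bound to hemopexin, which went from 24.5 ± 2.3 to 12.2 ± 1.6 CPM, and Tfrc, the transferrin receptor, from 259 ± 18 to 71.1 ± 47.7 CPM (SD, n = 4 and 6; edgeR, adjusted p = 0.000492 and 0.0304). Both are expressed by many cell types of muscle, and the call of Tfrc was kept in 4 of 10 fits that left out a sample. Hmox1, the heme-degrading enzyme, was higher in every LLC sample than in every Control but was not called by edgeR, at 1.81 ± 0.61 (log2, SE; adjusted p = 0.0935), whereas DESeq2 called it (adjusted p = 0.0417).

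Genes used to describe macrophage activation did not move as a block. Of 10 genes of alternative activation, Mrc1 not among them, 5 were tested, with Il4ra and Chil3 called higher and Mgl2 lower. Over all genes tested, 1.65% were called higher and 3.99% lower. Chil3 went from 0.051 ± 0.070 to 2.27 ± 2.81 CPM (SD, n = 4 and 6; edgeR, adjusted p = 0.0206). It had under 10 counts in every Control, so it was tested only through its level in LLC. Il4ra, the receptor chain for interleukin 4, went from 6.23 ± 0.58 to 19.9 ± 6.3 CPM (SD, n = 4 and 6; edgeR, adjusted p = 0.00103), and it is not specific to macrophages. Of 10 genes of inflammatory activation, 2 were tested. Il1b, the cytokine interleukin 1 beta, rose from 0.080 ± 0.032 to 1.18 ± 0.76 CPM and Nos2 fell from 5.25 ± 0.65 to 3.22 ± 0.65 CPM (SD, n = 4 and 6; edgeR, adjusted p = 0.00625 and 0.0269), with the calls kept in 10 and 5 of 10 fits that left out a sample. Il1b too had under 10 counts in every Control and was tested only through LLC. Which cells gave the levels of these activation genes was not tested.

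Variation between mice of the same group was also compared with that of other genes. After each group's mean was subtracted, the genes most like Mrc1 over the 10 samples, among 11658 genes, were Hint2, Dynlt1b, Fars2, Timm21 and Smim26 (Pearson's r of the deviations 0.92, 0.89, 0.87, 0.86 and 0.86). Those most like Cd14 were Snx5, Tdp2, Elmo3, Rpl10a-ps1 and Inca1 (0.91, 0.91, 0.90, 0.89 and 0.89). None of these 10 genes is a macrophage marker on the lists used, and with 10 samples the highest of so many coefficients are high in any case, so they are given as a description only. All points share the same libraries.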

How the data were processed

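TA muscle total RNA from 4 Control and 6 LLC mice was sequenced from both ends as stranded libraries in 1 lane. Per the labels and the study's methods, the authors mapped reads to mm10 with TopHat2 and counted them per gene with HTSeq at default settings. The deposited values are raw counts per gene, listed by Ensembl identifier although the methods name RefSeq genes. HTSeq's default counts by strand, but which annotation release and strand setting these files came from could not be settled, so genes that overlap others may share reads. DESeq2 was the authors' test.

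Groups came from the sample labels. Symbols were matched for 37607 of 39179 identifiers, and coordinates and exon lengths came from GENCODE M21 (GRCm38). Upstream sequences of Mrc1, Folr2, Cd163, Ly6c2 and Lyz2 came from RefSeq and are printed up to the first start of the gene in GENCODE. The window of Cd68 was searched, held no match and is not printed. Lyve1 and Adgre1 had no entry, and those of Csf1r and Cd14 are not reported here. Counts were filtered with filterByExpr (minimum 10), scaled by TMM and tested with edgeR 4.0.16 (quasi-likelihood, group as the only term, R 4.3.3), with Benjamini-Hochberg adjustment, an adjusted p of 0.05 and 1.5-fold as threshold. CPM and RPKM use the TMM-scaled library, and log2 CPM a prior count of 2. DESeq2 1.42.0 and limma 3.58.1 (voom) were alternatives, with other scalings, filters, a replicate block and each sample left out. Total counts were 16693209 to 21303084 per sample, and 3 counts were taken as the floor. Intervals and floors cover counting error only, since PCR copies are not independent molecules. Replicates are separate mice, and no pair of libraries of the same group agreed within sampling noise. The chi-square per degree of freedom was 3.93 to 8.73 in Control and 8.52 to 197 in LLC. LLC 1 stood apart, at 121 or more against every other LLC library, whereas the remaining LLC pairs reached at most 61.4. On simulated counts of this comparison with 200 of 12555 genes changed, edgeR recovered 72 of 100 genes at 2-fold and 95 of 100 at 4-fold with 5 false calls. The simulation gave both groups the same spread and drew the changed genes from all levels. It therefore does not give the recovery for markers with few counts.

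The markers and gene lists were chosen with earlier results of these data known. All 10 markers were described in full, and from every other list up to 4 genes were named, first those past the threshold by size of change and then the most abundant, with 1 gene of the monocyte list not reported here. Prox1, Cbr2, C1qc, Runx1, Cebpb, Csf1, Spi1, Ly6g, Elane, Ccl2, Hmox1 and Gas6 were named outside that rule, after their values were seen.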

Additional observations from a re-analysis of the deposited data

Results flagged for a closer look

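Among 13 measures in the 2 groups (26 groups of samples), 4 had a sample far from the others, where chance gives about 1 in 20, or 1.3 here. Cd68 was 2.47 CPM in LLC 1, with the gap to the next sample making up 0.659 of the range of the 6 LLC samples. Cd163 was 5.09 CPM in Control 4, with a gap of 0.833 of the range of the 4 Control samples. Lyz2 was 17.9 CPM and Lyve1 was 1.73 CPM in Control 3, with gaps of 0.883 and 0.873 of the range. Control 3 was also the highest Control in Csf1r, Folr2 and Adgre1. Without Control 3 the log2 change of Lyve1 was -2.19 and that of Lyz2 was 0.54, and without Control 4 that of Cd163 was -0.21, with the call of each gene as before.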

How the results depend on the processing

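The number of genes called was 715 with all samples and the settings given above. It became 475 where every sample had to hold 10 counts or more, a setting in which 5 of the markers could be tested and 1, Mrc1, was called, and 1572 when p was not adjusted. Without 1 sample it ran from 415 to 966, and it was 415 to 438 without any 1 of the 4 Control samples. DESeq2 called 1052 genes, of which 388 were higher, against 209 higher with edgeR. Of the markers, 2 to 4 were called in the fits without 1 sample, with Folr2 tested and called without Control 1 and Ly6c2 not tested without LLC 3, LLC 4, LLC 5 or LLC 6. Ly6c2 was also not tested with mitochondrial genes left out, where 2 markers were called. The replicate numbers do not pair the mice, since the deviations of samples with the same number correlated at -0.03, 0.01, -0.08 and 0.13. With the replicate number as a block over replicates 1 to 4, 107 genes and 0 markers were called, with Mrc1 at -1.01 (edgeR, adjusted p = 0.0597) and Lyve1 at -2.21 (edgeR, adjusted p = 0.144). The same 8 samples without the block, a fit added after the data were seen, called 299 genes and 2 markers. The resident minus monocyte difference was -2.07, and it was -2.56 with a prior count of 0.5, -1.90 over replicates 1 to 4 and between -2.16 and -1.89 without 1 sample. The difference in library totals, LLC minus Control, ran from -2400779 to -1608697 counts without 1 sample, with an exact permutation p of up to 0.0952, and that in the mitochondrial share from -4.48 to -3.29 percentage points. Cd68 turned to -0.12 with limma voom, Maf to 0.11 with limma voom, and Adgre1, at 0.16 over all genes and between -0.14 and 0.16 in the 3 fits without 1 sample that kept it, to -0.14 without Control 1 (-0.14 and, without LLC 5, -0.018 in fits with no count filter, added after the data were seen), and none of these was called in either direction. Leaving out a sample ended the call of other named genes as follows, with the adjusted p (edgeR) at its highest. Each Control sample ended that of Ly6c1 (0.152), Mgl2 (0.0819) and Tfrc (0.0831), all but Control 1 those of Pf4 (0.106) and Reln, Hbb-bs and Alas2 (0.0567, 0.0832 and 0.105), all but Control 2 those of Chil3 (0.0676), Kdr (0.0771) and Nos2 (0.1), and Control 1 that of Il34, whose change then was under 1.5-fold. Among LLC samples, LLC 5 ended Mgl2, Nos2, Tfrc, Alas2 and Ly6c1, LLC 6 Pf4, Kdr, Nos2, Tfrc and Ly6c1, LLC 2 and LLC 3 Pf4 and Ly6c1, and LLC 1 Ly6c1. Depth limits Folr2, Cd14, Adgre1, Lyve1 and Ly6c2 most, each with at most 32 counts in any library.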
